A study of Mus musculus with 4 samples.

Results

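Genes of monoamine synthesis, storage and breakdown were followed in pancreas of Cyp11a1 knockout mouse embryos. The 9 genes were Ddc, Th, Tph1, Tph2, Gch1, Slc18a1, Slc18a2, Maoa and Maob. They were found as the non-control probes whose RefSeq transcript, given with each probe, belongs to one of these genes. This gave 12 of 41174 probes and 8 of the 9 genes, out of 17305 genes that could be named on the array. No probe was matched to Tph2. The group was chosen on the ratio of Ddc, which was higher in knockout on these same arrays. The values of Ddc are therefore given as a description with no test, and the question was whether the other genes of the pathway moved with it. The other 8 genes were listed for their role, but their ratios come from the same arrays, and their calls describe these arrays only.

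The study compared pancreas at stage E18.5 from Cyp11a1 knockout and wild-type embryos of strain C57BL/6JNarl. Cyp11a1 encodes the mitochondrial enzyme that starts steroid hormone synthesis from cholesterol. Each of 4 arrays held 1 knockout extract in red (Alexa 647) and 1 wild-type extract in green (Alexa 555), and the labels call the arrays biological replicates. No array had the dyes swapped, so a gene-specific dye effect and the genotype cannot be told apart. How the allele was made, whether an extract came from 1 embryo or from several, and the sex of the embryos are not given in the sources used here.

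Monoamines are made in steps. Tyrosine hydroxylase (Th) and the tryptophan hydroxylases (Tph1 outside the brain, Tph2 in neurons) add a hydroxyl group to the amino acid, with tetrahydrobiopterin as cofactor, whose synthesis starts with GTP cyclohydrolase (Gch1). Aromatic amino acid decarboxylase (Ddc) then makes dopamine or serotonin, the vesicular transporters Slc18a1 and Slc18a2 load the amines into granules, and the monoamine oxidases Maoa and Maob break them down on the mitochondrial outer membrane. In the pancreas these genes are known mainly from endocrine cells, which can take up and decarboxylate amine precursors, and from nerve fibres. Ddc is also abundant in kidney and liver, and has alternative first exons that differ between neuronal and non-neuronal tissue.

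Over the arrays, median brightness ranged from 304 to 467 for knockout RNA and from 163 to 224 for wild-type RNA, with 78.2% to 85.1% of spots well above background. Acinar, duct and endocrine genes were measured throughout, with all 9 listed acinar genes, all 7 duct genes and 16 of 17 endocrine genes passing the filter on dim probes. The brighter probe of Cyp11a1 was at -0.16 ± 0.070 (log2 of knockout over wild type, SE, limma adjusted p = 0.164), and since its place relative to the deleted part is not given, it does not check the genotype labels. Whether 2 extracts of an array were of the same sex was read from Xist, the RNA of the inactive X chromosome, whose log2 ratio was -3.91, -0.28, -4.22 and 3.46 on arrays 1 to 4. The extracts of arrays 1, 3 and 4 thus differed in Xist, lower in knockout on arrays 1 and 3 and higher on array 4. The Y-linked genes Ddx3y, Eif2s3y, Kdm5d and Uty went the opposite way on these arrays. Uty was at 2.13, 0.078, 2.30 and -1.64 on arrays 1 to 4. On array 2 the Y-linked genes lay between -0.47 and 0.23. On arrays 1, 3 and 4 a difference of sex and one of genotype cannot be told apart.

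Ddc stood apart from the other genes of the group. Its log2 level in wild-type pancreas (per channel, after loess and quantile normalisation of the mean brightness) was 9.28, 9.15, 9.41 and 9.11 on arrays 1 to 4. In knockout pancreas it was 10.13, 10.21, 10.34 and 9.81. All knockout extracts lay above all wild-type extracts, as they did for 5.98% of all genes tested. On the log2 scale, knockout exceeded wild type by 0.85, 1.06, 0.93 and 0.71, with a mean of 0.89 ± 0.063 (SE, n = 4 arrays), a level 1.85-fold higher. The second probe for the same transcript gave 0.72, 0.82, 0.94 and 0.44, with a mean of 0.73 ± 0.076, or 1.66-fold. Both probes were well above background for both genotypes on every array, and both gave their lowest ratio on array 4.

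On each array Ddc exceeded every other measured member. The highest other member reached 0.20 on array 1, 0.30 on array 2 and 0.34 on array 3, each time Maoa. On array 4 it was Maob at 0.060, with Maoa at 0.0596. The lowest other member was at -0.085, -0.18, -0.15 and -0.16, which was Gch1 on arrays 1, 3 and 4 and Slc18a1 on array 2.

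**Figure D1:**
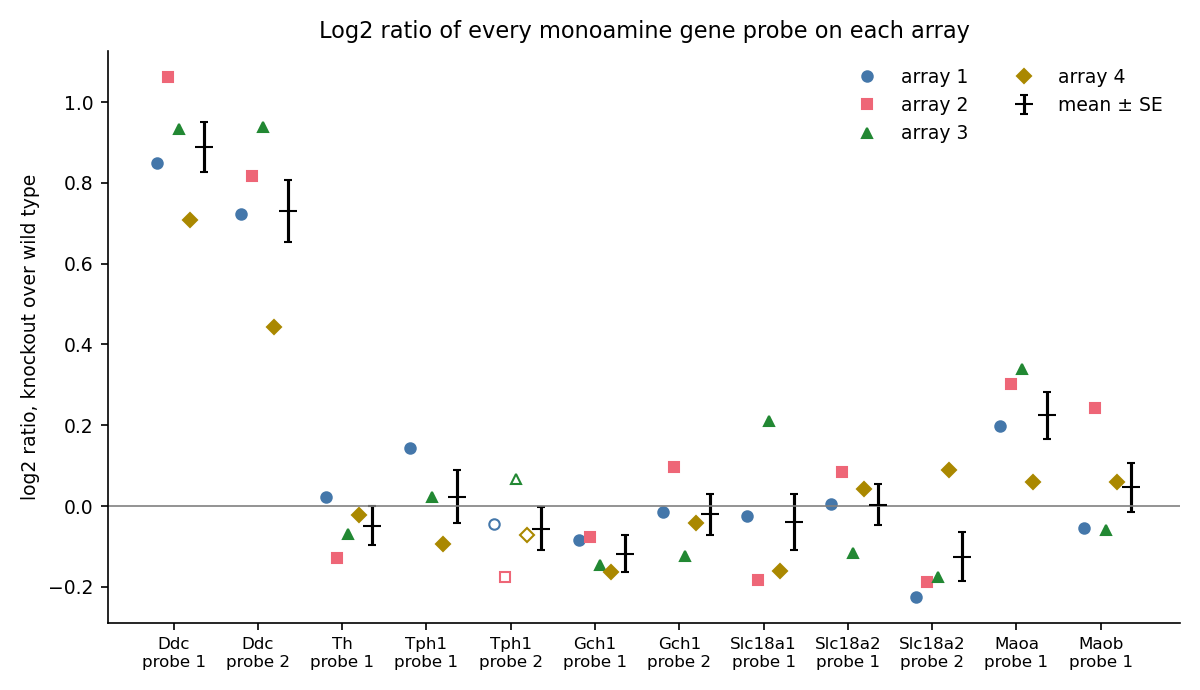
Log2 ratio of knockout over wild type (vertical axis) for the 12 probes of 8 monoamine genes (horizontal axis), with 1 point per array and the mean ± SE beside them; open symbols mark a probe not well above background. The points of both Ddc probes lie between 0.44 and 1.06, above all points of the other probes, which lie between -0.22 and 0.34.

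The promoters are shown for the decarboxylase that was higher, for the oxidase gene that passed the test and for Th, the hydroxylase of the step before Ddc that did not. RefSeq windows (build GRCm38.p6) were on hand for 7 of the 9 genes, 9 windows in all, and the 250 bases before each annotated start were read. The array files name an older build, mm9, so these coordinates were not set against the probes. Ddc has 2 such windows, one for each of 2 annotated starts, at chr11:11898145-11898394 and chr11:11890409-11890658, both on the minus strand. Th lies on the minus strand at chr7:142899996-142900245 and Maoa on the plus strand at chrX:16619448-16619697. Capitals mark the motif matches described after them, and each sequence runs 5′ to 3′ along the gene's strand:
Ddc upstream start: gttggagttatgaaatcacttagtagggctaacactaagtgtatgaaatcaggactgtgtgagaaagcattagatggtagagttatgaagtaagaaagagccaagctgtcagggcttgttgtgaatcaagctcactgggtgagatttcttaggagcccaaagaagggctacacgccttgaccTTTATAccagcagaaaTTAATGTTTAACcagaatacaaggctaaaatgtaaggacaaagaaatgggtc
Ddc downstream start: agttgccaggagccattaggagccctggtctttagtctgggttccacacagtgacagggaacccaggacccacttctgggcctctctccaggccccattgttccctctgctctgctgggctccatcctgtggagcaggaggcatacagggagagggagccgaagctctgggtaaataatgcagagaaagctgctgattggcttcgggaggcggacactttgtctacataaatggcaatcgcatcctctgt
Th: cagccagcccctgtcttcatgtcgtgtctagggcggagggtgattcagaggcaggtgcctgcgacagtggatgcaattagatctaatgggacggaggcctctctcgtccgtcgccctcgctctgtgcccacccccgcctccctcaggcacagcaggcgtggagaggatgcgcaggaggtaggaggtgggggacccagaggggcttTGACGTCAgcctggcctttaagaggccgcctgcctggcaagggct
Maoa: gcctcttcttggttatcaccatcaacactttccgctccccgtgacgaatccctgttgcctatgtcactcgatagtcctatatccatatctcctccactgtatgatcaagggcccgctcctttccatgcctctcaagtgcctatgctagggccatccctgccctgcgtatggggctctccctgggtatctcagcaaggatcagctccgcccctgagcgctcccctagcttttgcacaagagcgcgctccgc

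Motifs were chosen after these windows had been read, and each was searched on both strands. The upstream Ddc window held a match to GTTAA, any 2 bases and ATTAA, a pattern like the site of the factor HNF1. It lies on the strand opposite to the gene's and begins 52 bases before the start, and a TATAAA match on that strand begins at 68 bases. The downstream Ddc window held neither. The HNF1-like pattern occurred in 47 of 32851 windows of this length (0.143%) and TATAAA in 4063 (12.4%). The Th window held TGACGTCA, the palindrome of the cyclic AMP response element, 45 bases before the start, which 508 windows (1.55%) also held. The Maoa window held none of the motifs searched, and the palindromic glucocorticoid response element (AGAACA, any 3 bases and TGTTCT) was in none of the 9 windows of these genes and in 3 of all windows (0.00913%). The matches overlap no other motif searched, and are descriptions of letters, not of binding. Both Ddc probes carry the same transcript accession, so which start the RNA came from was not measured.

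Neither hydroxylase of the step before Ddc passed the test. Th was measured by 10 replicate spots of 1 probe. Its log2 level was 8.61, 9.28, 8.70 and 8.10 in wild type and 8.63, 9.15, 8.63 and 8.08 in knockout on arrays 1 to 4, so that the 2 genotypes overlapped over nearly their whole range. The ratios were 0.023, -0.13, -0.069 and -0.021, and the SD over the spots of an array was 0.058 to 0.12 (7 to 10 spots). This SD describes single spots and is not the error of the mean of an array. The mean was -0.049 ± 0.047 (SE, limma adjusted p = 0.517), with an unadjusted 95% interval of -0.16 to 0.059. Th thus varied between arrays (SD of the wild-type level 0.48) much more than between the genotypes of an array (SD of the ratio 0.065).

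Tph1, the tryptophan hydroxylase of peripheral tissue, was measured on 3 arrays, since its spot on array 2 was marked as non-uniform and left out. Its level was 10.80, 9.74 and 9.98 in wild type and 10.94, 9.76 and 9.89 in knockout on arrays 1, 3 and 4. Both extracts of array 1 were high and the genotypes overlapped. The ratio was 0.024 ± 0.064 (SE, n = 3 arrays, limma adjusted p = 0.84), with values of 0.14, 0.022 and -0.095 and a 95% interval of -0.13 to 0.18. Its other probe was not well above background in either channel on any array, so no fold is given for it.

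Gch1, which makes the precursor of the hydroxylases' cofactor, did not pass the test, and was below 0 on every array with loess and at 0.058 on average with median centring, which is -0.20 relative to the median of all genes there. Its level was 8.62, 8.79, 8.80 and 8.80 in wild type and 8.54, 8.71, 8.65 and 8.64 in knockout. The ratios of -0.085, -0.077, -0.15 and -0.16 gave a mean of -0.12 ± 0.044 (SE, n = 4, limma adjusted p = 0.117). A value below 0 on all 4 arrays was seen for 13.9% of all genes. The dimmer probe of Gch1 gave -0.014, 0.096, -0.12 and -0.043, with a mean of -0.021 ± 0.051, and had no common sign.

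Neither vesicular transporter passed the test. Slc18a1, found mainly in neuroendocrine cells, had a wild-type level of 8.0, 8.94, 7.23 and 8.24 and a knockout level of 7.98, 8.76, 7.44 and 8.08. As for Th, both extracts of an array were high or low together. The ratios were -0.026, -0.18, 0.21 and -0.16, with a mean of -0.040 ± 0.070 (limma adjusted p = 0.744). Slc18a2, the transporter of neurons, mast cells and beta cells, had a wild-type level of 7.52, 7.39, 7.42 and 7.45 and a knockout level of 7.53, 7.48, 7.30 and 7.49. Its ratio was 0.0035 ± 0.050 (limma adjusted p = 0.972), and its other probe gave -0.22, -0.19, -0.18 and 0.090, a mean of -0.12 ± 0.061 (limma adjusted p = 0.216 with every probe on its own). Both Slc18a2 probes were dim, with raw signals in the brighter one of 172 to 216.5 in red and 106 to 135 in green over local backgrounds of 44 to 49 and 27 to 33, and the offset added before the logarithm narrows ratios at such signals. The 95% intervals were -0.20 to 0.12 for Slc18a1 and -0.11 to 0.12 for Slc18a2.

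Maoa, the oxidase that prefers serotonin and noradrenaline, was the only member past the threshold apart from Ddc, which is not tested here. Its level was 10.03, 9.76, 9.66 and 9.77 in wild type and 10.23, 10.06, 10.00 and 9.83 in knockout, so the genotypes overlapped although each knockout extract was above the wild-type extract of its array, as in 23.7% of all genes. The ratios were 0.20, 0.30, 0.34 and 0.060, and the gene rose by 0.22 ± 0.057 on the log2 scale (SE, n = 4, limma adjusted p = 0.040), or 1.17-fold. The call did not hold without replicate 1, 2 or 3 (0.23, 0.20 and 0.19, limma adjusted p = 0.099, 0.098 and 0.143), with array weights (0.20, adjusted p = 0.060) or without the array as a block (adjusted p = 0.465), and the adjusted p over the alternatives reached from 9.0e-05 with median centring to that value. Maoa is X-linked. Its ratio was 0.30 on array 2, where Xist differed least (-0.28), and smallest on array 4, where Xist was higher in knockout. Both Ddc probes also had their lowest ratio on array 4. The part of embryo sex in the result of Maoa was not tested.

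Maob, its neighbour and relative on the X chromosome, which prefers phenylethylamine, had a wild-type level of 9.29, 9.33, 9.49 and 8.98 and a knockout level of 9.24, 9.57, 9.43 and 9.04. The ratios of -0.054, 0.24, -0.060 and 0.060 had both signs, with a mean of 0.047 ± 0.061 (limma adjusted p = 0.646). The difference between the ratios of Maoa and Maob was 0.25, 0.060, 0.40 and -0.00072 on arrays 1 to 4, with a mean of 0.18 ± 0.18 (SD, n = 4). An exact sign-flip permutation test over 4 arrays cannot give a two-sided p below 0.125, so whether the oxidases differ could not be decided by it.

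**Figure D2:**
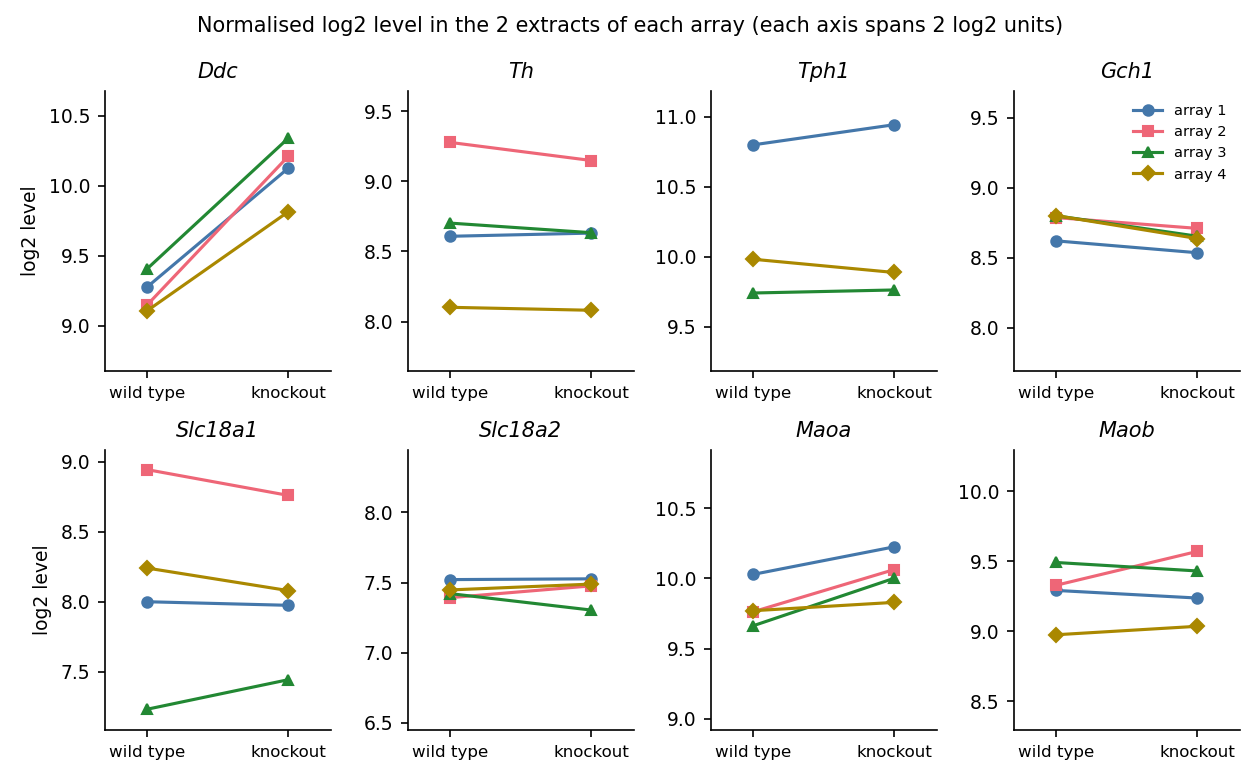
Normalised log2 level (vertical axis, 2 log2 units in every panel) of the 8 measured genes in the wild-type and knockout extract of each array, with a line joining the extracts of an array. Every Ddc line climbs, from 9.11 to 9.41 in wild type to 9.81 to 10.34 in knockout, whereas the lines of Th and Slc18a1 lie apart from each other and stay nearly flat.

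In all, 2 of 8 measured members passed the threshold of an adjusted p of 0.05, both higher, beside 14.6% of 15523 genes tested. Ddc is among them by choice, so its call is no support. Without Ddc, 1 of 7 passed (14.3%), a share near that of all genes and so no result about the group. Another member, Gch1, had an unadjusted p under 0.05, as did 30.8% of all genes. The median of the 7 was 0.0035, beside 0.013 for all genes. With median centring in place of loess, which shifts the median of all genes to 0.26 and puts 76.8% of them past the threshold, 5 of 8 members passed: Ddc at 1.20, Maoa at 0.56, Tph1 at 0.38 and Maob at 0.32 were higher and Slc18a2 at -0.17 lower. Relative to that median these were 0.95, 0.30, 0.13, 0.063 and -0.42. In bulk pancreas, fewer cells of a type and less RNA per cell cannot be told apart.

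The rest of the pathway was read from 65 further genes in 5 lists, of which 61 had a probe and 59 were tested. Of these, 9 rose and 2 fell (18.6%, beside 9.45% of all genes higher and 5.11% lower), with a median of -0.010. With median centring 48 of the 59 passed, beside 76.8% of all genes. The list of breakdown and conjugation held 5 of these 11.

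Of 9 tested genes of amine breakdown and conjugation, 5 rose and 0 fell, with a median of 0.23. Monoamine oxidases turn amines into aldehydes, which aldehyde dehydrogenases oxidise and aldehyde or aldose reductases reduce, and these enzymes also act on many aldehydes from other sources. Aldh1a1, a cytosolic dehydrogenase that also makes retinoic acid, had ratios of 0.43, 0.46, 0.64 and 0.48 and rose by 0.50 ± 0.051 (limma adjusted p = 0.0022). Aldh2, the mitochondrial dehydrogenase, had 0.30, 0.50, 0.49 and 0.50 and rose by 0.45 ± 0.052 (limma adjusted p = 0.0032). Aldh1b1, a mitochondrial relative found in pancreatic progenitors, had 0.22, 0.72, 0.54 and 0.27 and rose by 0.44 ± 0.084 (limma adjusted p = 0.016, and 0.057 without replicate 3). The aldo-keto reductase Akr1b3 had 0.35, 0.22, 0.32 and 0.31 and rose by 0.30 ± 0.045 (limma adjusted p = 0.0071), and its second probe gave 0.27. Its relative Akr1a1 had 0.072, 0.27, 0.19 and 0.38 and rose by 0.23 ± 0.058 (limma adjusted p = 0.040). That call was lost without replicate 2, 3 or 4 (adjusted p = 0.094, 0.097 and 0.150) and was at 0.055 to 0.061 with the processed signals, the deposited log ratio or scaling between arrays. Hnmt, which methylates histamine, was at 0.16 ± 0.049 (limma adjusted p = 0.076). Of the 11 pathway genes past the threshold, Aldh1a1 and Aldh2 also passed without the array as a block.

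Of 10 tested genes of cofactor supply, 2 rose, 1 fell and 7 did not pass, with a median of -0.0017. Pcbd1 and Pcbd2, dehydratases that recycle tetrahydrobiopterin and also serve as partners of the factor HNF1, rose by 0.32 ± 0.061 and 0.29 ± 0.057 (limma adjusted p = 0.015 and 0.018). The ratios of Pcbd1 were 0.13, 0.43, 0.43 and 0.31, and those of Pcbd2 were 0.16, 0.43, 0.35 and 0.21. Without replicate 3 neither passed (limma adjusted p = 0.058 and 0.070), nor did Pcbd1 without replicate 4 (adjusted p = 0.0503). Pdxp, a phosphatase of pyridoxal phosphate, the cofactor of Ddc, fell by 0.62 ± 0.098 (limma adjusted p = 0.0086), with ratios of -0.63, -0.91, -0.23 and -0.69. The other tetrahydrobiopterin genes Pts, Spr, Qdpr and Gchfr lay between -0.030 and 0.12 and did not pass, and Pdxk, a kinase that makes pyridoxal phosphate, was at -0.12.

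Of 5 tested genes of other amine synthesis, among them Dbh, Pnmt, Aanat and Hdc, 0 passed in the limma fit, and 1 had an unadjusted p under 0.05. This was Dbh, which turns dopamine into noradrenaline, at -0.13, -0.18, -0.11 and -0.19 with a mean of -0.15 ± 0.044 (limma adjusted p = 0.056, and 0.043 with array weights). Hdc, the histidine decarboxylase most closely related to Ddc, was at -0.026 ± 0.096, with 0.16, -0.40, 0.20 and -0.057 on arrays 1 to 4. Among 10 tested transporters, Slc6a4, the plasma membrane serotonin transporter, had ratios of 0.33, 0.31, 0.18 and 0.24 and rose by 0.27 ± 0.047 (limma adjusted p = 0.012). Its knockout levels of 8.42, 8.45, 8.28 and 8.41 all lay above its wild-type levels of 8.09, 8.14, 8.09 and 8.17, as for 5.98% of all genes. Without 1 replicate its limma adjusted p was 0.029 to 0.0499, and it did not pass without the array as a block. Slc7a5, which carries tyrosine and tryptophan into cells, had ratios of -0.59, -0.34, -0.51 and -0.34 and fell by 0.44 ± 0.057 (limma adjusted p = 0.0044), and with median centring was at -0.11 (limma adjusted p = 0.123) and at -0.36 once the median over genes was subtracted. The dopamine transporter Slc6a3 was at -0.037 ± 0.049.

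Of 25 tested receptors for serotonin, dopamine and noradrenaline, 1 passed. Htr1b, a serotonin receptor, had ratios of 0.29, 0.26, 0.34 and 0.032 and was higher at 0.23 ± 0.060 (limma adjusted p = 0.042) with loess but at -0.31 with median centring (-0.57 once the median over genes is subtracted). It was well above background on 3 of 4 arrays in each channel, and did not pass without replicate 1, 2 or 3 (limma adjusted p = 0.128, 0.094 and 0.146), without background correction (0.063) or with array weights (0.069). With the processed signals or the deposited log ratio Htr1b was at 0.61 and did not pass (limma adjusted p = 0.147 and 0.142). With the brightest probe of each gene, the median of the receptors was -0.010, with a range of -0.16 to 0.23. The dimmer Adrb1 probe was at 0.43 (limma adjusted p = 0.029 with every probe on its own), beside -0.045 for the brighter one. With the processed signals Htr1f was at 0.63 and Htr4 at -0.23 (limma adjusted p = 0.021 and 0.040). With the median signals they were at 0.13 and -0.081 and did not pass. Both probes were dim, with raw red signals of 90.5 to 133 for Htr1f and 86 to 140 for Htr4 over local backgrounds of 45 to 49. Htr1f in wild type was well above background on 2 of 4 arrays. The other Htr4 probe was at 0.22 with the median signals.

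**Figure D3:**
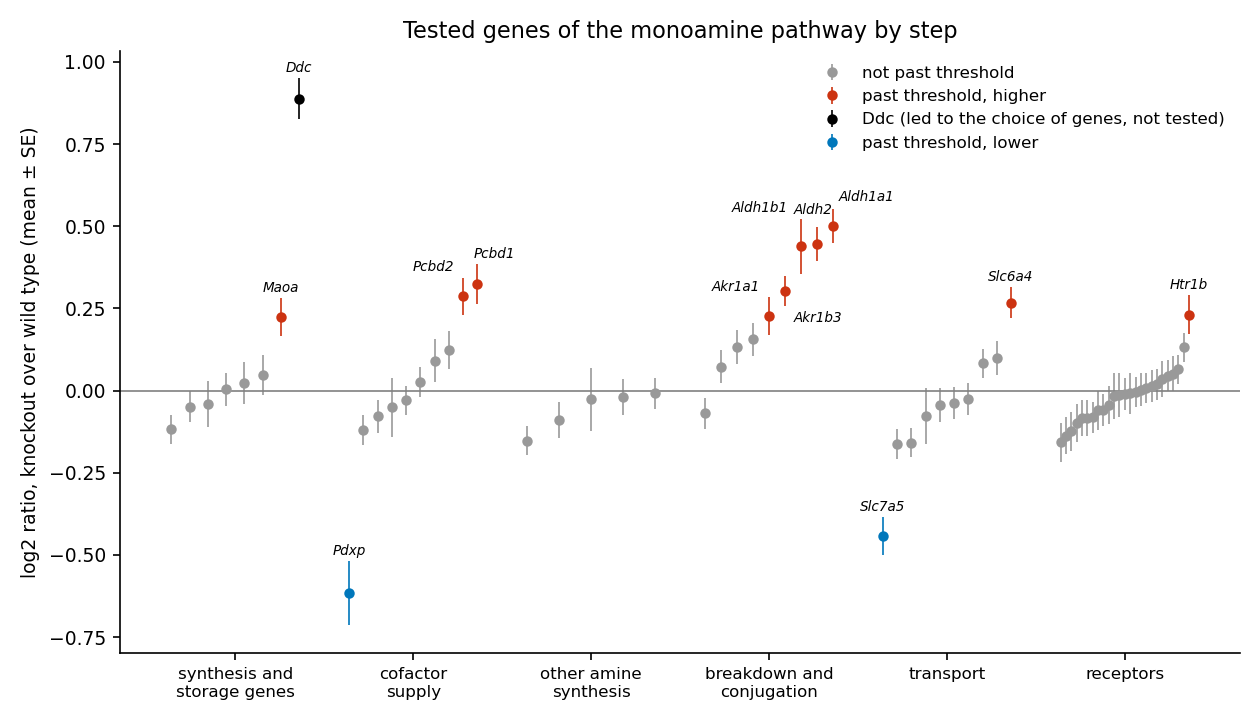
Mean log2 ratio of knockout over wild type ± SE (vertical axis) for the tested genes of the monoamine group and of 5 further lists (horizontal axis), coloured by whether the adjusted p was under 0.05, with Ddc in black. Ddc lies at 0.89, the 5 breakdown genes past the threshold lie between 0.23 and 0.50, and Pdxp (-0.62) and Slc7a5 (-0.44) lie below 0.

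Markers of cell types that contain Ddc or amines were set beside these values. Of all genes tested, 9.45% passed as higher, 5.11% passed as lower and 30.8% had an unadjusted p under 0.05. Counts near these shares are no result about a cell type. Of 10 tested markers of chromaffin cells and sympathetic neurons 0 passed in limma (3 had an unadjusted p under 0.05), and the list median was 0.039, 0.060, -0.020 and 0.039 on arrays 1 to 4. The summed level of its 8 genes measured on all arrays was 4030 to 4608 in knockout and 4077 to 4887 in wild type. The brightest were Hand2 (0.16 ± 0.052, n = 3) and Pnmt (-0.020 ± 0.054). Of the enterochromaffin markers 2 were tested, Fev (0.0040 ± 0.047) and Tac1 (-0.024 ± 0.052). Of these 0 passed in limma or had an unadjusted p under 0.05, and Lmx1a was not well above background on any array. Of 16 tested endocrine markers Neurog3 passed as higher and Chga and Chgb as lower, and the list median was -0.14, 0.15, -0.22 and 0.067. Its summed level was 150030 to 167710 in knockout and 142610 to 181610 in wild type, led by Ins1 and Ins2 (0.013 and -0.025). Of 8 mast cell markers 0 passed in limma, at an unadjusted p under 0.05 also 0, with medians of 0.31, -0.46, 0.22 and -0.069 and a summed level of 3791 to 4690 in knockout and 2954 to 5663 in wild type; the brightest were Tpsb2 (-0.044) and Cma1 (0.23). Ddc was between 0.71 and 1.06 on the same 4 arrays.

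Some acinar markers passed the threshold. Of 9 tested, 3 were higher, among them Rbpjl at 0.40 ± 0.073 and Cpa1 at 0.62 ± 0.092, and Pnlip was lower at -0.20 ± 0.043. Of all genes, 9.45% were higher and 5.11% lower. The list median was -0.15, 0.38, 0.19 and 0.37 on arrays 1 to 4, and its summed level was 555410 to 748300 in knockout and 491980 to 578610 in wild type, led by Amy2a5 (0.10) and Ctrb1 (0.23). Of 7 duct markers 0 passed in limma (1 at an unadjusted p under 0.05, median 0.077, led by Cftr and Krt7). On array 1, where the acinar median was below 0, Ddc was at 0.85, Aldh1a1 at 0.43 and Maoa at 0.20. The part of each cell type in the values of Ddc, of Maoa and of the breakdown genes was not tested.

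Liver, gut and kidney, which also contain Ddc, were read in the same way, beside the same 14.6% of all genes past the threshold and 30.8% at an unadjusted p under 0.05. Hepatocyte genes varied widely between arrays: Alb, albumin, had ratios of 4.13, 2.70, -3.52 and 1.44. Of 10 tested hepatocyte genes 0 passed in limma (2 at an unadjusted p under 0.05), the list median was 1.63, 0.74, -0.76 and 0.41, and the summed level of its 8 genes measured on all arrays was 5645 to 17729 in knockout and 4670 to 8862 in wild type. On arrays 1 to 4 Ddc was at 0.85, 1.06, 0.93 and 0.71. The part of liver, gut or kidney RNA in the values of Ddc was not tested. Of the hepatocyte genes Apob and Apoa2 were the brightest on average (-0.088 and 0.14). Of 8 tested gut epithelial genes 0 passed in limma (1 at an unadjusted p under 0.05, median -0.0028, led by Vil1 at -0.057 and Apoa4 at 0.0021), with Cdx2 and Cdh17 not well above background on any array and summed levels of 2691 to 3471 in knockout and 2635 to 3404 in wild type. Of 6 tested kidney proximal tubule genes 0 passed in limma (1 at an unadjusted p under 0.05, median -0.058, led by Slc22a12 at -0.12 and Slc34a1), with Cubn not well above background on any array and summed levels of 932 to 1261 and 945 to 1297. Of 4 tested adrenal cortex genes 0 passed in limma, also at an unadjusted p under 0.05 (median -0.0072, led by Mc2r and Hsd3b1).

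**Figure D4:**
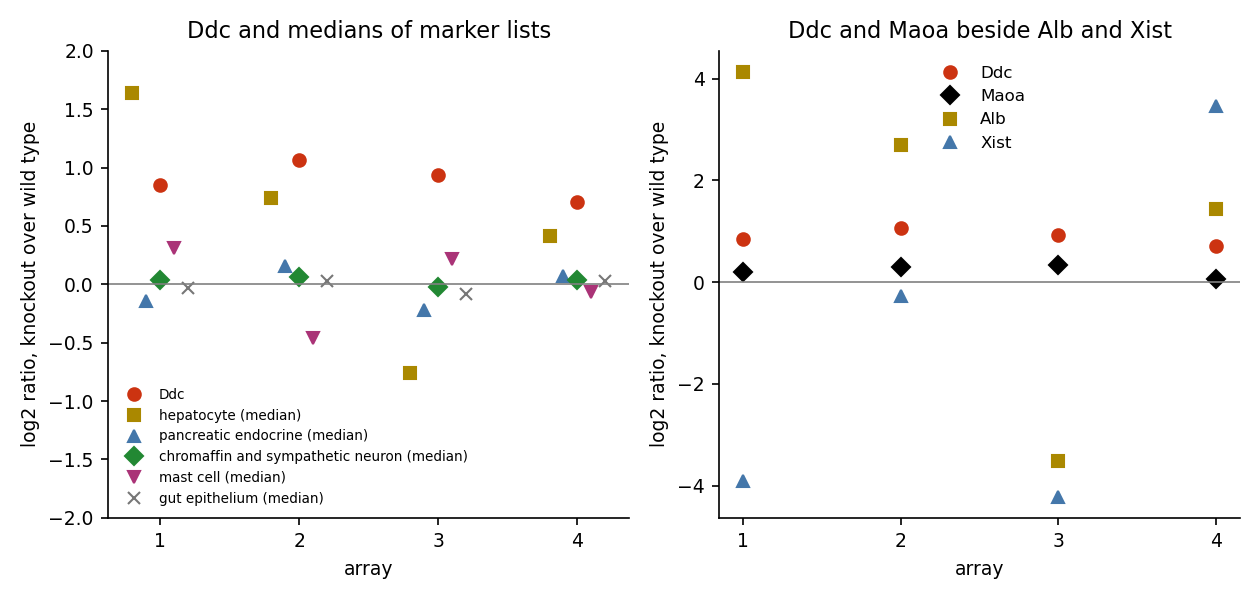
Log2 ratio of knockout over wild type (vertical axis) on each array (horizontal axis) for Ddc beside the medians of 5 marker lists (left) and for Ddc and Maoa beside Alb and Xist (right). Ddc stays between 0.71 and 1.06 on all arrays, whereas Alb runs from -3.52 to 4.13 and Xist from -4.22 to 3.46.

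The genes whose 4 ratios lay closest to those of Ddc, by Euclidean distance over the 4 arrays among 14636 genes, were Cpn1, a subunit of the plasma carboxypeptidase N (distance 0.15), Bex4 (0.17), Akr1c12, an aldo-keto reductase (0.22), Pipox, a peroxisomal oxidase (0.23), Cyp4v3, a cytochrome P450 (0.24), and Eef1a1, a translation elongation factor (0.25). Their mean ratios lay between 0.79 and 0.95. All 4 values of these genes come from the arrays that also gave the values of Ddc, and the distances are a description. None of them belongs to the lists of the monoamine pathway.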

How the data were processed

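Spot values come from the authors' run of Agilent Feature Extraction 10.5.1.1, as the submitters' processing notes give it. Per the labels, 20 µg of total RNA per extract were reverse transcribed from oligo(dT) and coupled to the dyes. Per the file headers, the deposited files hold median signals, local backgrounds and processed signals as intensity on a linear scale, the log10 ratio of red over green, and marks for spots above background (other columns of 0 or 1).

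Median signals were corrected by normexp (offset 50) and loess within each array (span 0.3), in limma 3.58.1 under R 4.3.3, with control and non-uniform spots at weight 0. Non-uniform spots were then left out and spots of a probe averaged. Of 41174 probes, 61.0% were named through RefSeq accessions. A probe was tested if well above background in a channel on at least 3 of 4 arrays, and the brightest probe stood for its gene, which gave 15523 genes, 600 of them on 3 arrays. Log2 ratios were fitted against 0 (lmFit, eBayes) with Benjamini-Hochberg adjustment over all genes, threshold 0.05. Each ratio pairs both extracts of its array. All arrays were on 1 slide. The number of arrays limits the precision, and whether the spread is biological or technical rests on the labels.

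Members and gene lists were chosen with earlier results of these data known. The text names all members, every pathway gene past the threshold (otherwise the largest ratio of a list), the brightest 2 genes of each marker list discussed, the 6 genes nearest to Ddc, Cyp11a1 and Xist. Further genes were named after their values were seen: Hnmt, Hdc, Pts, Spr, Qdpr, Gchfr, Pdxk, Slc6a3, Alb, Neurog3, Chga, Chgb, Cpa1, Rbpjl and Pnlip. So were Adrb1, Htr1f, Htr4, Ddx3y, Eif2s3y, Kdm5d and Uty. Some genes of the lists are not reported here by name.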

Additional observations from a re-analysis of the deposited data

Results flagged for a closer look

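Among 45 of the named genes that were checked, each measured on 4 arrays, 3 had 1 array far from the others. About 1 gene in 20 does by chance. Aldh2 was at 0.30 on array 1, below 0.49 to 0.50 on the other arrays. Cyp4v3 was at 1.01 on array 2, above 0.70 to 0.75 on the others. Fev was at 0.11 on array 1, against -0.036 to -0.022 on the others.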

How the results depend on the processing

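Median centring in place of loess put 11921 of 15523 genes past the threshold instead of 2260, 79.4% of them higher instead of 64.9%, with 5 instead of 2 of the members and 48 instead of 11 of the other pathway genes, and it turned Slc18a2 to -0.17. Without the array as a replicate block, 107 genes, 1 member and 2 other pathway genes passed, so the calls rest on the pairing of the extracts of an array. With array weights 1 member passed. Leaving out 1 array left 967 to 1634 genes, 1 to 2 members and 6 to 10 other pathway genes, the lowest counts of all genes and of pathway genes without replicate 3. These counts of members include Ddc, which led to the choice of the genes, so its place in them is no support. Where 1 member is counted, Maoa did not pass. The ratio of Ddc, given as a description, was 0.81 to 1.20 over all planned settings with the brighter probe or the mean of its probes. The other settings were background correction, processed signals, the deposited log ratio, scaling, filters, probe averaging and moderated variance. They kept Maoa, beside Ddc, and 10 to 14 other pathway genes past the threshold. The cause of these shifts was not tested. Signals near background limit Slc18a2, Htr1b, Htr1f and Htr4.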
